A study of Mus musculus with 9 samples.

Results

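The genes described here were the FOS family members Fos, Fosb, Fosl1, and Fosl2, the JUN family members Jun, Junb, and Jund, the related factor Atf3, and the early growth response genes Egr1 and Egr2, which were taken from the deposited gene table by symbol. These are 10 of the 43346 genes in the table, and all 10 passed the filter on low counts that left 16877 genes to test. Bulk RNA-Seq was performed on fibroblasts sorted from the lungs of Col1a1-GFP mice, in which a collagen I promoter drives the reporter, so the sort selects for activity of that promoter. The aged sham group (n = 4) received a single intratracheal dose of saline and the aged bleo group (n = 5) a single dose of bleomycin, which injures the lung and leads to fibrosis. All mice carried the reporter, were given as 72 weeks old in the sample labels and as 18 months old in the design text, and per the study's methods were males on an FVB background. Lungs were taken 30 days after instillation and digested with a collagenase preparation, and cells that were GFP+ and negative for CD45, CD31, and EpCAM (surface markers of hematopoietic, endothelial, and epithelial cells) were sorted directly into lysis buffer. The comparison is that of injured with uninjured lungs at an advanced age, and young mice were not analysed here.

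AP-1 is a dimeric transcription factor made of a JUN protein with a FOS, JUN, or ATF protein, held together by a leucine zipper, and it binds short palindromic elements in promoters and enhancers. Most FOS and JUN genes and the zinc finger genes Egr1 and Egr2 are immediate early genes: growth factors, stress, and mechanical stimuli switch them on within minutes through MAP kinases, ternary complex factors, and SRF, and their messenger RNAs are short-lived. In fibroblasts, AP-1 is known to act on matrix metalloproteinase and cytokine genes, and EGR1 on growth factor and collagen genes.

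The promoters are shown because many of these genes are known to respond to the same signals and 8 of the 10 changed in the same direction. The 250 bases before each start site were taken from RefSeq (GRCm38.p6, a C57BL/6J reference), which gave windows for 8 of the 10 genes, all but Fosl1 and Egr1. Both strands were searched for the CRE core TGACGT (present in 6.47% of 32851 windows of this length), the Jun-type element TGACATCA (2.93%), the TPA-responsive element TGANTCA (6.75%), the CArG box bound by SRF (1.47%), and the EGR element GCGNGGGCG (4.70%). No letters can match both the CRE core and the Jun-type element in the same place. Capitals mark the matches. The Fos window (chr12:85473640-85473889, + strand) held a CRE core at positions -66 to -61 from the start site, and the Jun window (chr4:95052223-95052472, - strand) a Jun-type element at -45 to -38.
Fos: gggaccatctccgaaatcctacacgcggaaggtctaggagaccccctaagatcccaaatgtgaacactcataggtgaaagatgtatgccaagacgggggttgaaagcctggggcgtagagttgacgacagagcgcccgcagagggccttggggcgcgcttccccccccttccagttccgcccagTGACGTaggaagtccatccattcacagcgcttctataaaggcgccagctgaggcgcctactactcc
Jun: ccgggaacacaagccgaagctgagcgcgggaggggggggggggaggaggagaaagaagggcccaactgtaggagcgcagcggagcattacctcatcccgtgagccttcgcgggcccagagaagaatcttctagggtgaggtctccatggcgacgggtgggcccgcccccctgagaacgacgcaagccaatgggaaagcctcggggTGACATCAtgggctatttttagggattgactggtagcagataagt
The Atf3 stretch (chr1:191183334-191183363, - strand) held the CRE core in reverse at -8 to -3. The Egr2 stretch (chr10:67537793-67537822, + strand), found in several overlapping windows, held a CArG box and a reversed CRE core side by side. A further Egr2 window (chr10:67537316-67537565) held another CArG box, CCTTTTTTGG, at -72 to -63, and the most upstream Egr2 window (chr10:67535249-67535498) held none of the motifs. The Fosb stretch (chr7:19310076-19310105, - strand) and the Fosl2 stretch (chr5:32136383-32136412, + strand) held the same EGR element.
Atf3: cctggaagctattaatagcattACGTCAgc
Egr2: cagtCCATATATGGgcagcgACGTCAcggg
Fosb: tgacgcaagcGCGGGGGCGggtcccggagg
Fosl2: ccggctgcgcGCGGGGGCGgaagggcgcgc
The Junb and Jund windows held none of the 5 motifs, and no window held TGANTCA. Start sites differ between annotations, as GENCODE M21 starts Jund at 70698949, downstream of the window searched (chr8:70697489-70697738), and the bases before that start were not searched. The Atf3, Fosl2, and Fosb windows and some Egr2 windows overlapped annotated exons of their own gene. A match describes letters in these windows and was not tested as a binding site.

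Library totals ran from 49921946 to 62370512 counts in aged sham and from 53833507 to 68260600 counts in aged bleo. A count of 0 would allow up to 3 counts, or 0.0409 to 0.0605 CPM (counts scaled to library size, here after TMM normalization), which covers counting error only. Checked against its markers, the sort held 8 fibroblast markers, which summed to between 24845 and 30577 CPM in aged sham and to between 54995 and 72429 CPM in aged bleo. Their levels differed widely, with means in aged sham and aged bleo of 7910 and 23902 CPM for Col3a1. Those of Tcf21, named outside the rule for lists, were 106 and 49.6 CPM. The markers of the sort, named outside the rule for lists, were low, as Epcam ranged from 0.409 to 1.20 CPM, and Pecam1 from 2.44 to 6.70 CPM. Leukocyte markers were present, with Ptprc, which encodes CD45, at between 30.6 and 183 CPM. This was not below all factors, as Egr2 was at between 56.6 and 115 CPM and Atf3 at 94.3 CPM in aged bleo 4. The macrophage marker Lyz2 reached 1132 CPM in aged bleo. The leukocyte, macrophage, and neutrophil lists were highest in aged sham 4 and aged bleo 4. The name of every aged sham library and of aged bleo 4 ends in 4, those of aged bleo 1 to 3 in 5, and that of aged bleo 5 in 6. What this number stands for is not given in the sources used here, and apart from aged bleo 4 it cannot be told apart from the treatment.

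After bleomycin, 8 of the 10 factors were lower and none was higher (edgeR's quasi-likelihood test, Benjamini-Hochberg FDR under 0.10 and a fold change over 1.5), where 11.5% of all genes tested were lower and 12.3% higher by the same rule. The decrease was largest for Atf3, at 4.51-fold, followed by Fosb at 2.30-fold and Egr1 at 2.10-fold, and smallest for Jund at 1.55-fold. Fosl1 and Egr2 did not pass the thresholds. In the same 8 factors every aged bleo library lay below every aged sham library, against 16.1% of all genes tested. The median log2 fold change was -0.77 over the 10 factors and 0.01 over all genes tested. Together the 10 genes took 1.36% to 1.78% of all counts in the aged sham libraries and 0.573% to 1.10% in the aged bleo libraries. In these bulk libraries, fewer cells expressing a gene and less of its RNA per cell cannot be told apart.

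**Figure D1:**
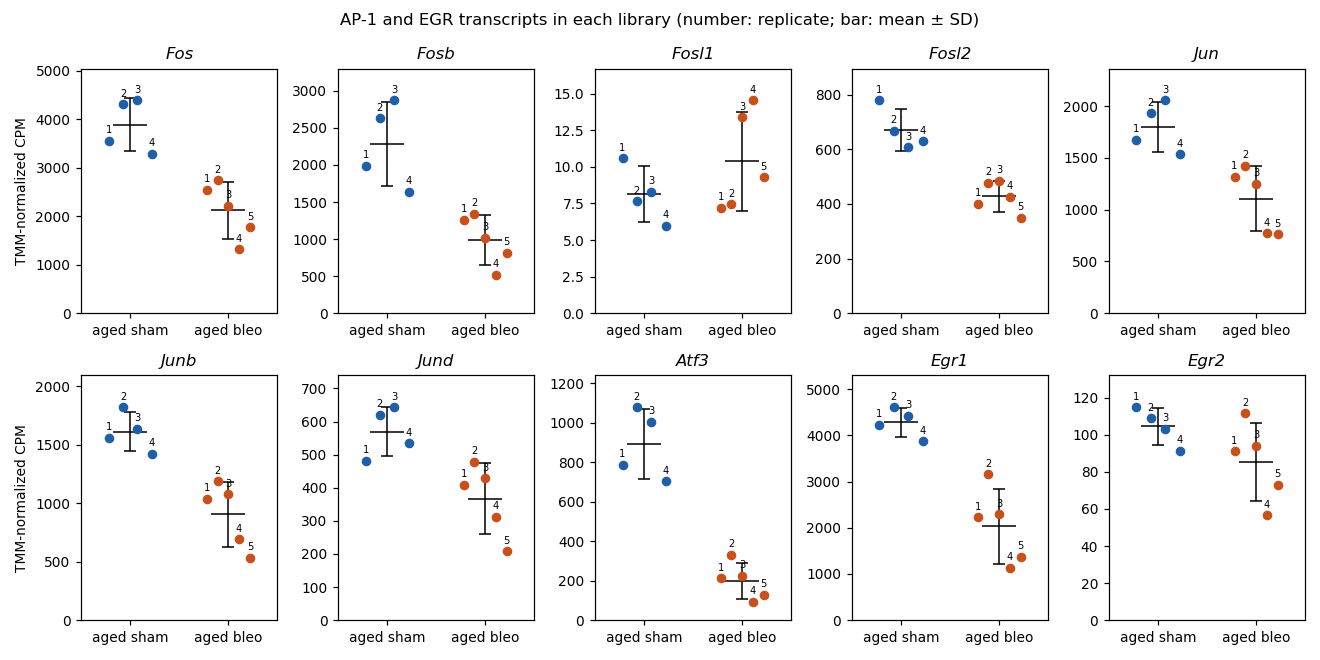
TMM-normalized CPM (linear axis from 0) of each of the 10 factors in the 4 aged sham and 5 aged bleo libraries, with the replicate number beside each point and a bar at the mean ± SD. The groups do not overlap for 8 genes and overlap for Fosl1 and Egr2, and aged bleo 4 or aged bleo 5 is the lowest injured library for all genes but Fosl1.

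Fos, the founding member of the family and a partner of JUN proteins, was the most abundant FOS gene. Fos (ENSMUSG00000021250, GRCm38 chromosome 12, 85473890 to 85477273) was at 3559, 4311, 4389, and 3293 CPM in aged sham 1 to 4 and at 2552, 2742, 2222, 1320.1, and 1769.9 CPM in aged bleo 1 to 5. All injured libraries were below all uninjured ones, and aged bleo 4 was the lowest. The means were 3888 ± 545 CPM (SD, n = 4) and 2121 ± 580 CPM (SD, n = 5), and the log2 fold change was -0.87 (standard error 0.22, 95% interval -1.36 to -0.38, FDR 0.0146).

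Fosb, which encodes a FOS protein and, by splicing, a truncated and longer-lived form, had the larger fold change of the pair. Fosb (ENSMUSG00000003545, chromosome 7, 19302721 to 19310045) was at 1988, 2626, 2869, and 1638 CPM in aged sham 1 to 4 and at 1261, 1344, 1019, 520.4, and 818 CPM in aged bleo 1 to 5. The groups did not overlap, with the lowest aged sham library at 1638 CPM and the highest aged bleo library at 1344 CPM. Its log2 fold change was -1.20 (standard error 0.28, 95% interval -1.83 to -0.57, FDR 0.0113). The table gives 1 count per gene, so the splice forms were not separated.

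Fosl2 and Fosl1 encode the FOS-related antigens, which dimerize with JUN proteins and are generally expressed later and for longer than Fos. Fosl2 (ENSMUSG00000029135, chromosome 5, 32136472 to 32157831) was at 779, 668, 607, and 629 CPM in aged sham 1 to 4 and at 399, 478, 485, 426, and 348 CPM in aged bleo 1 to 5. Its groups did not overlap, and it had the smallest spread of the 10 genes in aged bleo, with a coefficient of variation of 13.3%. The log2 fold change was -0.65 (standard error 0.12, 95% interval -0.93 to -0.37, FDR 0.00469), which is a 1.57-fold decrease. It came to -0.57 without aged sham 1 and to -0.58 without aged bleo 5, both short of the 1.5-fold threshold. Fosl1 (ENSMUSG00000024912, chromosome 19, 5447703 to 5455945) was the only factor with a higher mean in aged bleo, at 10.6, 7.65, 8.30, and 5.99 CPM in aged sham 1 to 4 and at 7.22, 7.43, 13.4, 14.5, and 9.28 CPM in aged bleo 1 to 5. Aged bleo 3 and 4 were above all aged sham libraries, while the other 3 were within their range. The log2 fold change of Fosl1 was 0.35 (standard error 0.25, 95% interval -0.22 to 0.92, FDR 0.307), an interval that holds no change as well as a change past 1.5-fold in this direction, and it was 0.06 without aged sham 4 and aged bleo 4. Fosl1 overlaps the protein-coding gene Ccdc85b on the other strand, and since the strand setting of the counting is not given in the sources used here, their reads cannot be separated.

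The JUN genes, whose products can dimerize among themselves or with FOS proteins, all passed the test for a decrease. Jun (ENSMUSG00000052684, chromosome 4, 95049034 to 95052222) was at 1676, 1931, 2055, and 1534 CPM in aged sham 1 to 4 and at 1321, 1424, 1249, 773, and 763 CPM in aged bleo 1 to 5. Aged bleo 4 and 5 were both far below the other injured libraries. The log2 fold change of Jun was -0.70 (standard error 0.22, 95% interval -1.19 to -0.22, FDR 0.0323). Junb, which encodes a weaker activator than JUN that can counter it, was at 1560.0, 1818, 1637, and 1422 CPM in aged sham 1 to 4 and at 1037, 1186, 1075, 689.99, and 532 CPM in aged bleo 1 to 5. Junb (ENSMUSG00000052837, chromosome 8, 84976909 to 84978748) had a log2 fold change of -0.83 (standard error 0.23, 95% interval -1.34 to -0.32, FDR 0.0209), and its groups did not overlap.

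Jund encodes the JUN protein that is broadly expressed in resting cells and is known to restrain proliferation. Jund (ENSMUSG00000071076, chromosome 8, 70697739 to 70700616) was at 481, 619, 643, and 535 CPM in aged sham 1 to 4 and at 409, 477, 429, 312, and 208 CPM in aged bleo 1 to 5. The groups only just separated, as aged sham 1 and aged bleo 2 were nearly level. Its log2 fold change was -0.63 (standard error 0.22, 95% interval -1.13 to -0.13, FDR 0.0517), the weakest of the 8 calls. The call was lost without aged sham 2 (log2 fold change -0.59, FDR 0.116), without aged sham 3 (-0.57, FDR 0.121), and without aged bleo 5 (-0.48, FDR 0.0474 but under 1.5-fold). Across all alternatives its FDR ranged from 0.0152 to 0.121. Jun and Jund each have an annotated antisense gene, Junos and Gm11175, whose reads cannot be told apart from theirs without the strand setting.

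Atf3, a stress-induced ATF protein that pairs with JUN proteins and often represses its targets, had the largest fold change of the 10 factors. Atf3 (ENSMUSG00000026628, chromosome 1, 191170296 to 191218039) was at 788, 1077, 1003, and 704 CPM in aged sham 1 to 4 and at 212, 330.1, 224, 94.3, and 129 CPM in aged bleo 1 to 5. The lowest uninjured library was above the highest injured library by a wide margin. The means were 893 ± 176 CPM (SD, n = 4) and 198 ± 92.0 CPM (SD, n = 5), and the log2 fold change was -2.17 (standard error 0.33, 95% interval -2.93 to -1.42, FDR 0.00177). With each library left out in turn it stayed between -2.44 and -2.00. A short annotated RNA, Gm24748, lies within Atf3 on the other strand.

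Egr1, a zinc finger activator of growth factor genes, was lower in every injured library. Egr1 (ENSMUSG00000038418, chromosome 18, 34859823 to 34864984) was at 4237, 4608, 4422, and 3869 CPM in aged sham 1 to 4 and at 2228, 3157, 2296, 1131, and 1369 CPM in aged bleo 1 to 5. The uninjured libraries were close together, with a coefficient of variation of 7.36%, whereas that of the injured libraries was 39.8%. The log2 fold change of Egr1 was -1.07 (standard error 0.28, 95% interval -1.70 to -0.45, FDR 0.0167). Egr2, a related factor best known from myelinating Schwann cells, did not separate the groups, with 115, 109, 103, and 91.4 CPM in aged sham 1 to 4 and 91.1, 112, 94.1, 56.6, and 72.9 CPM in aged bleo 1 to 5. Aged bleo 2 was level with the uninjured libraries, and aged bleo 4 and 5 were below them all. Egr2 (ENSMUSG00000037868, chromosome 10, 67535475 to 67542188) had a log2 fold change of -0.29 (standard error 0.18, 95% interval -0.69 to 0.10, FDR 0.220).

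**Figure D2:**
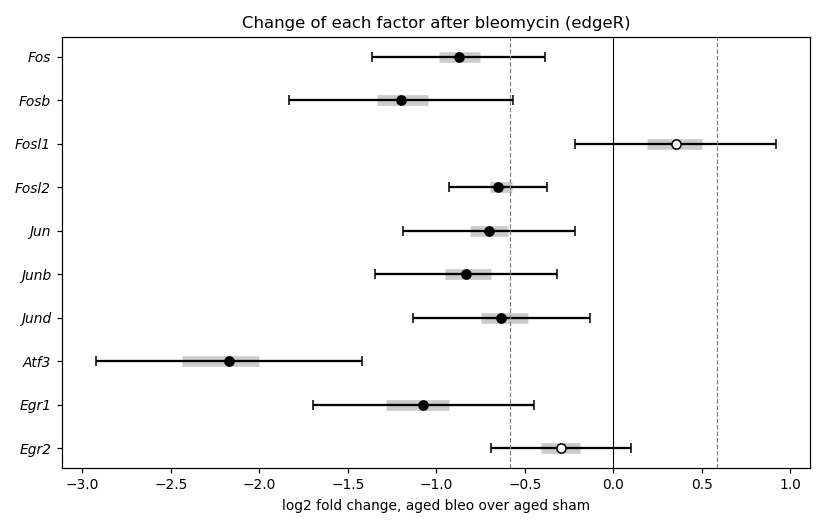
Log2 fold change of each factor, aged bleo over aged sham, with its 95% interval from edgeR (black line) and the range with each library left out in turn (grey bar), where filled points passed both thresholds and dashed lines mark 1.5-fold. Atf3 has the lowest value at -2.17, and its interval overlaps those of Fosb and Egr1. The intervals of the other 7 lower genes overlap one another, and those of Fosl1 and Egr2 cross 0.

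When aged bleo 4, the only injured library that shares its name ending with the aged sham libraries, was set against them alone, the directions were the same for all 10 factors. The log2 fold changes were then -1.54 for Fos, -2.11 for Fosb, -1.20 for Jun, -1.21 for Junb, -0.85 for Jund, -3.23 for Atf3, and -1.91 for Egr1. Egr2 was at -0.87 and Fosl1 at 0.85. With 1 injured library the spread within aged bleo is not measured, so no call is made from this comparison. The spread of the uninjured libraries does not stand for it. With all libraries, the coefficient of variation of CPM was larger in aged bleo than in aged sham for all 10 factors. Aged bleo 4 was also the library with the highest leukocyte and neutrophil marker levels of its group, and without it and aged sham 4, 7 of the 10 factors were lower.

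To compare the factors with each other, the deposited FPKM values were used, which are scaled to gene length. In aged sham, Fos was at 694 ± 108 FPKM (SD, n = 4), followed by Egr1 at 401 ± 35.8, Junb at 367 ± 43.3, Fosb at 256 ± 67.0, Jun at 237 ± 34.6, and Atf3 at 174 ± 36.9 FPKM. Jund was at 83.1 ± 11.9, Fosl2 at 48.0 ± 5.52, Egr2 at 12.9 ± 1.36, and Fosl1 at 2.00 ± 0.476 FPKM. Neighbors in this order overlapped from Egr1 through Atf3, whereas Fos stood above Egr1 in every library and Jund, Fosl2, Egr2, and Fosl1 were each separate. By mean FPKM, Fos was the 13th, Egr1 the 24th, and Junb the 27th most abundant of all genes in the table.

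In aged bleo, Fos remained the most abundant factor, at 386 ± 99.0 FPKM (SD, n = 5) and at rank 27 among all genes. It was followed by Junb at 210.2 ± 60.9, Egr1 at 194 ± 73.2, Jun at 148 ± 39.5, Fosb at 113 ± 36.6, Jund at 54.6 ± 15.1, and Atf3 at 39.2 ± 17.4 FPKM. All neighbors from Fos through Fosl2 (31.3 ± 3.72 FPKM) overlapped between libraries, and only Egr2 (10.7 ± 2.42 FPKM) and Fosl1 (2.62 ± 0.894 FPKM) were separate. Atf3 moved furthest in the ranking of all genes among the 8 lower factors, from 87 to 453.

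**Figure D3:**
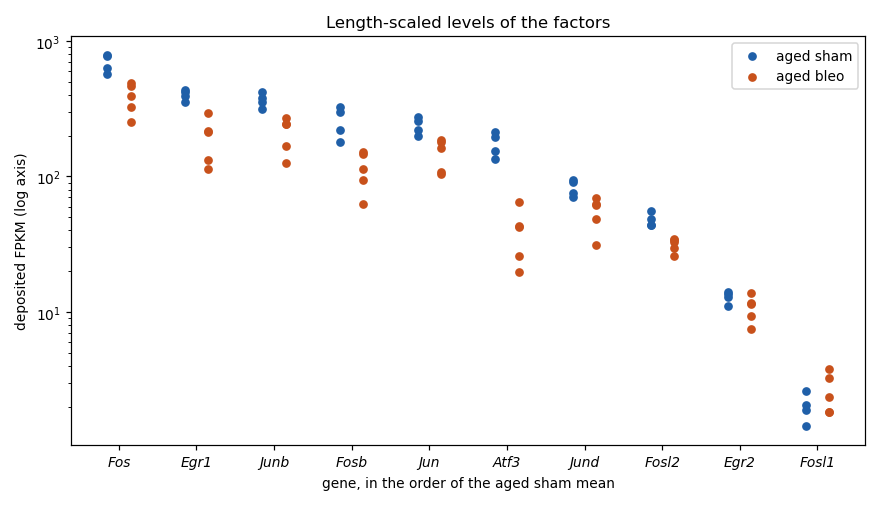
Deposited FPKM (log axis) of the 10 factors in each aged sham and aged bleo library, ordered by the aged sham mean. Levels span from Fosl1, at a mean of 2.00 FPKM, to Fos, at 694 FPKM, and in aged sham Atf3 (174 FPKM) lies above Jund (83.1 FPKM), while in aged bleo (39.2 against 54.6 FPKM) their libraries overlap.

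The spread among injured mice was shared by most of the factors. The coefficient of variation of CPM was larger in aged bleo than in aged sham for all 10 genes. It ran from 13.3% for Fosl2 to 46.5% for Atf3 in aged bleo and from 7.36% for Egr1 to 24.9% for Fosb in aged sham. How many of all genes tested did the same was not counted. Over all genes tested, the chi-square per degree of freedom between pairs of libraries was 34.1 to 468 in aged bleo and 30.9 to 70.9 in aged sham. Among the injured libraries, aged bleo 2 was the highest for 8 factors, all but Fosl1 and Fosl2. To ask whether the factors varied together beyond the treatment, treatment means of log2 CPM were subtracted and Fos was correlated with each of the others over the 9 libraries. Fosb followed Fos most closely (Pearson's r = 0.987, exact permutation within treatments, p = 0.000347, the smallest p these orders allow, adjusted p = 0.0135 over 39 relations, Spearman's rho = 1.00 with the same p and adjusted p). Atf3 (r = 0.961, p = 0.00174, rho = 0.833, p = 0.0274), Jun (r = 0.932, p = 0.00104, rho = 0.900, p = 0.00347), and Egr1 (r = 0.926, p = 0.00139, rho = 0.867, p = 0.0118) also passed with r by exact permutation, each at an adjusted p of 0.0169, but not with rho (adjusted p from 0.0677 to 0.214).

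The remaining factors followed Fos less closely. Egr2 (r = 0.903, rho = 0.733), Junb (r = 0.787, rho = 0.833), and Jund (r = 0.694, rho = 0.767) did not pass (adjusted p = 0.0704, 0.181, and 0.236 by exact permutation), and neither did Fosl1 (r = -0.54, rho = -0.53, adjusted p = 0.404) or Fosl2 (r = 0.204, rho = -0.02, adjusted p = 0.938). When the libraries with the most extreme Fos deviations (aged bleo 4 and aged sham 4) were taken out, r was 0.982 for Fosb, 0.923 for Atf3, 0.948 for Jun, and 0.875 for Egr1. With single libraries left out, r stayed between 0.970 and 0.993 for Fosb and between 0.854 and 0.942 for Egr1, but fewer orders are then possible, and none of the relations with Fos passed without aged sham 4, aged bleo 1, aged bleo 2, or aged bleo 3. Without aged sham 1, Egr2 passed in addition (r = 0.963, adjusted p = 0.0433 by exact permutation). The points share library preparation and depth, and differences between relations were not tested.

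**Figure D4:**
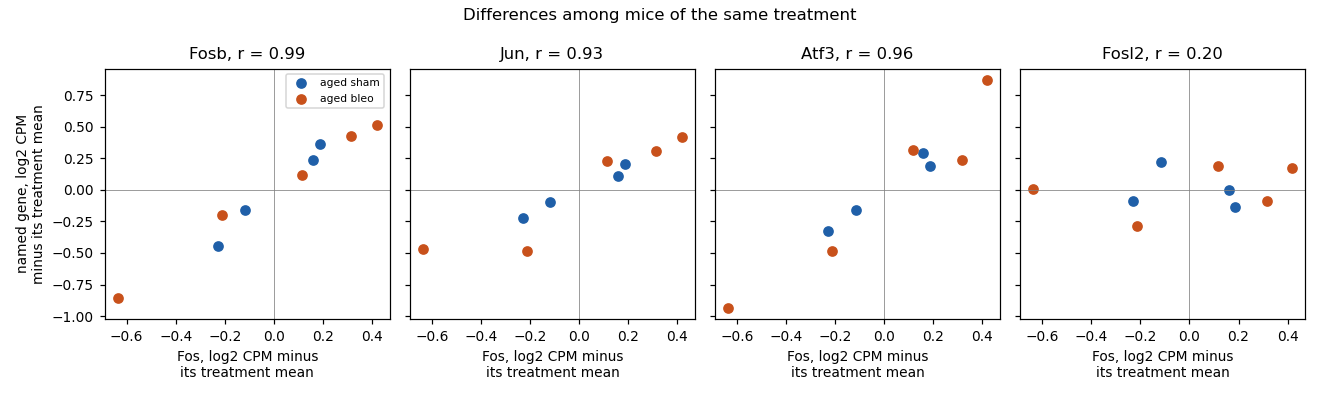
Deviations from the treatment mean of log2 CPM for Fosb, Jun, Atf3, and Fosl2 (vertical axes) against those of Fos (horizontal axes), where each point is 1 of the 4 aged sham or 5 aged bleo libraries. Fosb (r = 0.987), Atf3 (r = 0.961), and Jun (r = 0.932) lie along a line with Fos, and Fosl2 (r = 0.204) does not.

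Of 18 further bZIP genes related to the FOS, JUN, and ATF families, 5 were lower, 2 higher, and 11 not changed past the thresholds, with a median log2 fold change of -0.06. All genes tested gave 11.5% lower and 12.3% higher by the same rule, the shares to set beside the counts of each list here and below. Atf5, an ATF factor of stress responses, was lower (249 ± 41.4 against 132 ± 41.7 CPM, log2 fold change -0.91, standard error 0.24, FDR 0.0169). The other lower genes, named after their values were seen, were the small MAF genes Maff (-1.33) and Mafk (131 ± 17.7 to 65.5 ± 19.2 CPM), the CREB family gene Creb5 (-1.97), and Crem (-0.60), whose products include repressors of CRE elements. Batf3, a JUN partner, was higher (log2 fold change 2.33, FDR 7.00e-04) but stayed low at 0.441 ± 0.154 and 2.23 ± 0.592 CPM. Jdp2, a repressive JUN partner (log2 fold change -0.56), and Atf4, the effector of the integrated stress response (-0.55), had FDR values of 0.00383 and 0.00431 but were short of 1.5-fold.

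The EGR relatives, NAB corepressors, and SRF partners gave 2 higher, no lower, and 8 not called among 10 genes, with a median log2 fold change of 0.03. Among all genes tested, 12.3% were higher and 11.5% lower. Egr4 was higher from a very low level (0.546 ± 0.191 to 1.24 ± 0.199 CPM, log2 fold change 1.17, FDR 0.00988), and Elk3, a ternary complex factor, was higher as well (0.99, FDR 0.00179). Srf itself, which encodes the factor known to bind CArG boxes, had a log2 fold change of -0.29 (standard error 0.11, FDR 0.0706) and was under 1.5-fold. Binding at the CArG box marked above in the Egr2 stretch was not tested. Nab1, which encodes a corepressor of EGR proteins, was at -0.17 (FDR 0.192), and the ternary complex factor gene Elk4 at 0.23 (FDR 0.0377).

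None of 14 genes of the MAP kinase cascade upstream of these factors was called in either direction, and their median log2 fold change was -0.03. The ERK gene Mapk3 was at -0.06 (standard error 0.10), and the JNK gene Mapk9 at -0.21 (standard error 0.06, FDR 0.0351). Map2k4, a kinase of JNK, was at 0.37 (FDR 0.00941), and Map2k2, a kinase of ERK, at 0.38 (FDR 0.0285). These are transcript levels and hold no information on kinase activity.

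Among 32 other immediate early genes, 16 were lower, 1 higher, and 15 not called, with a median log2 fold change of -0.59, and their summed level was 16172 to 21005 CPM in aged sham and 7697 to 12484 CPM in aged bleo, without overlap. Zfp36, which encodes an RNA-binding protein that destabilizes cytokine messages, was at 3255 ± 321 and 1232 ± 469 CPM (log2 fold change -1.40, standard error 0.28, FDR 0.00543). The orphan nuclear receptor gene Nr4a1 was at 2131 ± 427 and 1076 ± 312 CPM (-0.99, FDR 0.0121), and the cyclooxygenase gene Ptgs2 (-1.50, FDR 4.78e-04) and the stress gene Gadd45g (-0.95, FDR 9.52e-04) were also lower. The exception was Plk2, which encodes a kinase of the cell cycle and stress responses and was higher (31.6 ± 10.1 to 84.9 ± 17.3 CPM, log2 fold change 1.43, FDR 0.00160).

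Immediate early genes are known to respond to enzymatic digestion of tissue, often together with heat shock genes, and 12 heat shock genes were therefore examined beside the factors. Of these, 4 were higher, 1 lower, and 7 not called, with a median log2 fold change of 0.35, and they summed to 2469 to 2900 CPM in aged sham and 2805 to 3587 CPM in aged bleo. The inducible HSP70 genes Hspa1a (133 ± 32.6 to 334 ± 26.2 CPM, log2 fold change 1.33, FDR 6.90e-04) and Hspa1b (182 ± 47.9 to 503 ± 49.0 CPM, 1.47, FDR 7.05e-04) and the small heat shock protein gene Hspb1 (1.17, FDR 0.00180) were higher. The abundant chaperone genes Hspa8 (-0.17, FDR 0.269) and Hsp90aa1 (0.22, FDR 0.122) were not called. The lower gene, named after its values were seen, was Dnajb4 (-0.78, FDR 0.0302). Of the heat shock genes called, 4 moved against the lower factors and 1 with them. Within treatments, the mean log2 CPM of the list correlated with the 10 factors at r from -0.03 to 0.147 (rho from -0.15 to 0.233), and none passed by exact permutation (adjusted p = 0.938 for each with r). These values turned either way with single libraries left out, from -0.32 to 0.362 for Fos and from -0.39 to 0.319 for Egr1. The part of sample handling in the result was not tested.

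Of 16 known AP-1 target genes, 10 were higher, 1 lower, and 5 not called, with a median log2 fold change of 1.11, so that most moved against the factors. Spp1, which encodes osteopontin, was at 8.77 ± 2.53 and 2145 ± 1084 CPM (log2 fold change 7.93, standard error 0.55, FDR 2.84e-05). The collagenase gene Mmp13 (0.122 ± 0.0366 to 12.0 ± 2.65 CPM, 6.59, FDR 5.10e-06) and the stromelysin gene Mmp10 (0.180 ± 0.108 to 7.28 ± 1.68 CPM, 5.32, FDR 3.79e-05) were higher from near the detection limit. The lower gene was Il6, named after its values were seen (360 ± 60.7 to 129 ± 59.9 CPM, -1.48, FDR 0.0101).

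Of 12 known EGR1 target genes, 5 were higher, 2 lower, and 5 not called, with a median log2 fold change of 0.22. Tgfb1 (26.5 ± 1.09 to 109 ± 28.1 CPM, log2 fold change 2.04, FDR 9.79e-05) and the growth factor gene Pdgfa (1.82, FDR 0.00158) were higher. The matrix genes Fn1 (1.02, FDR 0.0169) and Thbs1 (1.49, FDR 0.00583) were also higher. The lower genes, named after their values were seen, were F3, the gene of tissue factor (-1.31, FDR 0.0163), and Icam1, that of an adhesion molecule (-1.01, FDR 0.0529).

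**Figure D5:**
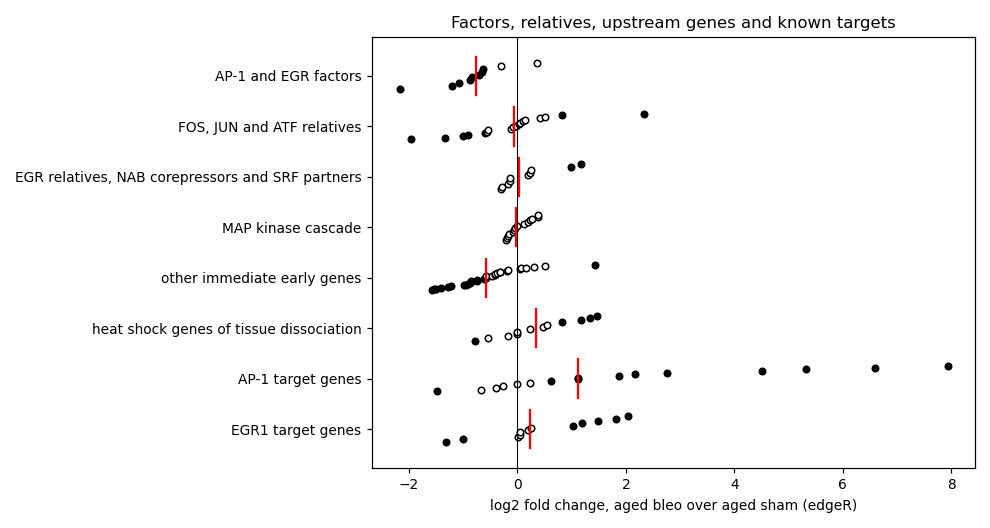
Log2 fold change of every tested gene of 8 lists, aged bleo over aged sham, where filled points passed both thresholds and red bars mark the list medians. The factors (median -0.77) and the other immediate early genes (-0.59) lie mostly to the left of 0, the kinases (-0.03) around 0, and the AP-1 targets (1.11) mostly to the right.

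Markers of cells that the sort should remove differed between the groups in part. Their counts are to be set beside the 12.3% higher and 11.5% lower among all genes tested. Of 11 macrophage markers, 6 were higher and none lower (median log2 fold change 1.46, summed level 176 to 309 CPM in aged sham and 520 to 1734 CPM in aged bleo), led by Lyz2 (2.42, FDR 0.00142), Cd68 (1.24, FDR 0.00502), and Chil3 (1.79, FDR 0.00551), and none was at 0 in any library. Of 8 tested neutrophil markers none was called (152 to 941 CPM against 85.0 to 866 CPM), and of 6 pan-leukocyte markers 1 was higher and none lower. Within treatments, macrophage markers correlated negatively with Fos (r = -0.87, rho = -0.75, exact permutation p = 0.0177, adjusted p = 0.0987) and with 8 of the other 9 factors, all but Fosl1, at r from -0.87 to 0.409 over the 10, none of which passed. Without aged bleo 1 and aged bleo 4, r with Fos was -0.66. The neutrophil list gave r from -0.75 to 0.209, with none past adjustment by exact permutation. Without aged bleo 4 and aged sham 4, its r changed sign for 8 of the 10 factors, all but Fosl2 and Egr2, as for Fos from -0.64 to 0.343. The part of these cells in the result was not tested.

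Among the mesenchymal markers, the fibroblast list had 4 genes higher and 2 lower of 8, with Col1a1 at 2.33 (FDR 1.76e-04). The lower genes, named after their values were seen, were Dcn, which encodes the proteoglycan decorin and was the highest of the list in aged sham (8122 ± 558 to 2795 ± 1249 CPM, -1.54, FDR 0.00667), and the lung fibroblast transcription factor gene Tcf21 (-1.10, FDR 0.0121). The smooth muscle and pericyte list had 1 gene higher and 2 lower of 8, with Myh11 at -1.16 (FDR 0.0412). Beside the counts of these marker lists, 12.3% of all genes tested were higher and 11.5% lower. Of 7 endothelial markers, 2 were higher and 1 lower, where Tek (-2.48, FDR 0.00425) went from 161 ± 12.9 to 28.9 ± 18.8 CPM while Pecam1, the gene of CD31, was not called. All 4 B cell markers were lower, from a summed level of 3.21 to 10.6 CPM to one of 0.930 to 2.42 CPM. Of 9 epithelial markers 1 was higher and 1 lower, and of the 5 tested T and NK cell markers and the 4 mesothelial markers none was called. The part of these differences in the lower levels of the factors was not tested.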

How the data were processed

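Polyadenylated RNA of sorted Col1a1-GFP+ lung fibroblasts was sequenced in 4 aged sham and 5 aged bleo libraries, each labelled as a separate sample of its group. The authors deposited 1 table with read counts per gene, not normalized, and FPKM values, in which the authors divided by gene length and by a total exceeding the summed counts by a factor of 2.268 to 2.422. The submitters' processing notes name bcl2fastq, STAR 2.5.2b, Subread, featureCounts, and the builds mm10 and GRCm38. The strand setting is not given in the sources used here, and 5 of the 10 factors have exactly the GENCODE M21 position. Genes averaging 25 counts or more over the 9 libraries entered edgeR's quasi-likelihood test (edgeR 4.0.16, R 4.3.3, TMM normalization, treatment as the single term) and were called at a Benjamini-Hochberg FDR under 0.10 and a fold change over 1.5. CPM are TMM-normalized, and log2 CPM use a prior count of 2. The intervals are at 95%. The chi-square per degree of freedom between libraries of a group was 30.9 to 468, so none was a resequenced copy of another. This does not show that each came from a separate mouse. The study's methods describe plotted points as independent mice or as replicates of cell cultures, and its figure gives n = 4 and n = 5 for these groups. The p-values measure the spread between these libraries.

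The factors, lists, and tests were chosen with earlier results of these data known. All 10 factors are named, and from each list the 3 genes with the lowest FDR and the 2 with the highest mean CPM could be named, of which some are not reported here. Genes named outside this rule are marked as such in the text. Correlations within treatments used log2 CPM minus the treatment mean and all 2880 orders (two-sided exact permutation), and were adjusted over 39 relations, 9 with Fos and 30 with the mean log2 CPM of 3 lists. The alternatives were DESeq2 1.42.0, limma 3.58.1 (limma-trend) on log2 CPM and on log2(FPKM + 0.1) and log2(FPKM + 1), RLE or library-size scaling, a robust fit, stricter thresholds (FDR under 0.05 and over 2-fold), no filter or one at 10 counts in each library, single libraries left out, replicate numbers as a block, and only libraries whose name ends in 4. Leaving out aged sham 4 and aged bleo 4 together was chosen after seeing the data. The tests were tried on simulated counts. Promoter sequences are those of RefSeq.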

Additional observations from a re-analysis of the deposited data

How the results depend on the processing

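Of 220 values for single factors under the alternatives, 205 kept their direction and their side of the thresholds, 13 kept their direction but missed the thresholds, 2 newly passed, and none reversed. The 2 were Fosl1 and Egr2 with aged bleo 4 as the only injured library, where the spread within aged bleo is not measured. The count of 8 lower factors held with DESeq2, limma on CPM and on both FPKM scales, RLE or library-size scaling, either filter, and the robust fit. It was 6 to 8 with single libraries left out and 7 without aged sham 4 and aged bleo 4. Under the stricter thresholds 3 remained lower (Fosb, Atf3, and Egr1). Over all genes, 4022 were called, 1785 with limma on log2(FPKM + 1), 2158 under the stricter thresholds, 6177 in libraries whose name ends in 4, and 3525 to 4597 with single libraries left out. Of the relations with Fos, 4 passed with all libraries and 0 to 5 with single libraries left out (5 without aged sham 1, 2 without aged bleo 4 or aged bleo 5), and of those with macrophage markers 0 passed, or 0 to 1 with single libraries left out, 1 being Fosb without aged sham 2.

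Deviations of same-numbered libraries from their group means correlated at 0.0922, 0.0623, -0.13, and 0.326, and not every library correlated best with its own number. The value of 0.326, for aged sham 4 and aged bleo 4, was the highest of all pairs. Such correlations cannot decide whether the numbers pair the mice, which the sample labels do not state. With replicate number as a block, 3536 genes were called (1822 higher and 1714 lower), and 6 factors were lower, with Fosl2 at -0.58 and Jund at -0.49 under 1.5-fold.

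Every factor was far above the counting floor in every library, so depth limits these values less than the number of mice does, 4 against 5. The values cover 1 age and 1 day, the promoter sequences are of another strain than the mice, and the library name endings are nearly confounded with the treatment.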
